A study of Mus musculus with 32 samples.

Results

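Immediate early response genes are switched on within minutes of a stimulus from proteins that are already in the cell, with no new protein synthesis needed. In T cells the signals are antigen receptor engagement, cytokines and stress, and the transcription factors SRF with its ETS partners, CREB and NF-kB carry them to the promoters. The products are mostly short-lived: AP-1, EGR and NR4A transcription factors, proteins that destroy mRNA, and phosphatases and kinases that end or reshape the signal. Many of these genes are also known to be induced by tissue dissociation and cell sorting.

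The 38 genes described here were taken by name from a fixed list, and all 38 were found among the 35968 genes of the tables and passed the filter on low counts that left 17159 genes. They comprised 9 AP-1 subunits, 6 EGR and NR4A factors, 4 other nuclear regulators, 5 genes of RNA decay and growth arrest, 5 genes of stress and damage, and 9 genes of signal feedback, GTPases and kinases. The libraries were RNA sequencing of 2 kinds of CD4 T cell, regulatory (Treg, gated as TCRb+CD4+Foxp3+) and conventional (Tconv, gated as TCRb+CD4+Foxp3-), sorted from the liver and the spleen of male C57BL/6 mice. Every animal carried Foxp3GFP, a reporter that marks cells expressing Foxp3, the factor that defines Treg cells. Each of the 4 populations had 5 libraries from mice given CCl4, a toxin that injures hepatocytes and leads to liver fibrosis, and 3 control libraries, 32 in all. The labels give neither the age of the mice nor the dose and duration of CCl4, and they do not say whether the libraries of a group came from separate animals, so p-values measure the spread between samples, which may be technical.

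The sort gate was checked in the RNA, with levels in CPM, a gene's counts scaled to a library of fixed size. Foxp3 lay between 909 and 1176 CPM in the Treg libraries, against 0.681 to 3.43 CPM in the Tconv libraries. The total of estimated counts ran from 24513124 to 75292019 over the 32 libraries. Spleen control libraries 2 and 3 stood apart from the other spleen libraries of both cell types in the genes described here, and results that rest on them are given with and without them.

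As a share of the library, the 38 genes together took 0.534% to 0.556% in spleen controls 2 and 3 of both cell types. In the remaining spleen libraries they took 1.66% to 1.92% in CCl4 Treg and 1.47% to 1.89% in CCl4 Tconv, against 1.55% in control 1 of Treg and 1.72% in control 1 of Tconv. The 16 liver libraries ran from 1.66% to 3.11%. In both spleen populations the pair of controls lay far below every other library of the same cells, while control 1 was close to the CCl4 libraries.

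**Figure D1:**
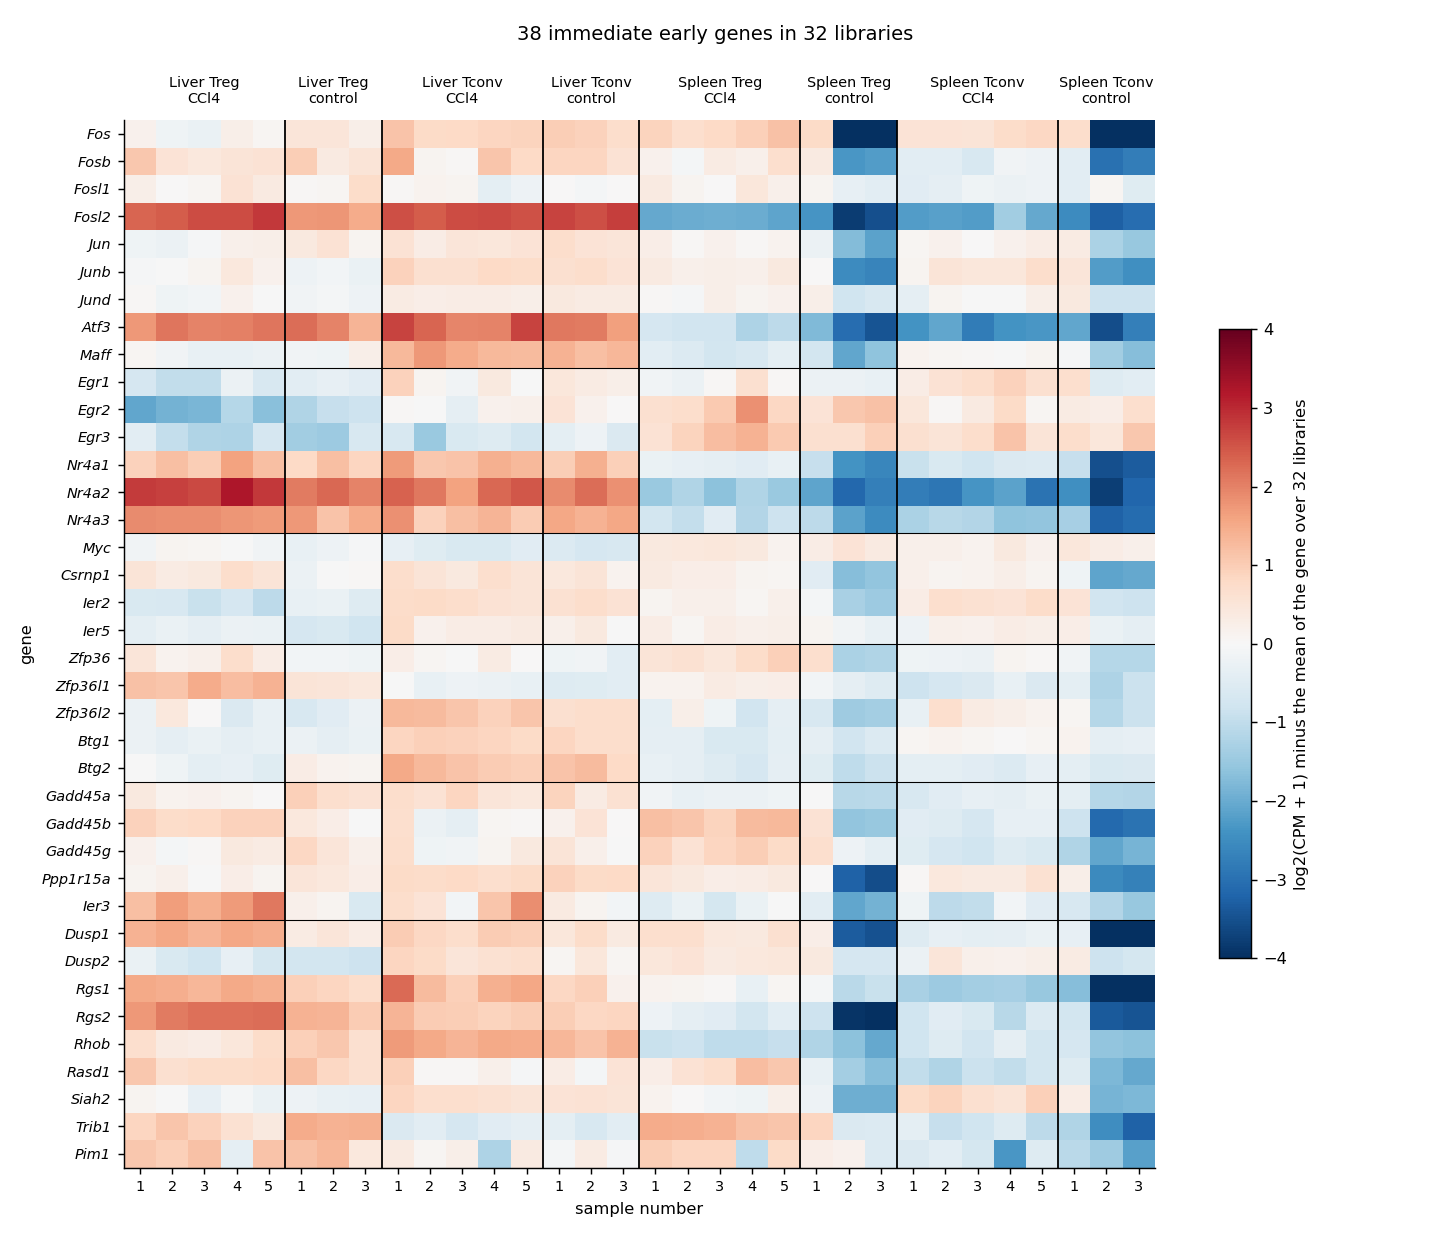
Level of each of the 38 genes (down the page, grouped by role) in each of the 32 libraries (across), as log2(CPM + 1) minus the mean of that gene over all libraries, with the colour limits at 4 either way. Spleen controls 2 and 3 form low columns in both cell types, and the rows of Fosl2, Nr4a2 and Atf3 are high in liver and low in spleen.

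Levels differ widely between the genes. On the TPM scale, which corrects for transcript length as well as depth, Junb, an AP-1 subunit, was the highest of the 38 in every group, with group means between 1468 and 5101 TPM. In CCl4 liver Treg, Junb averaged 3851 ± 491 TPM (SD, n = 5) and Dusp1, a phosphatase that switches off p38 and JNK kinases, 2675 ± 144 TPM. Of the 38 genes, 22 averaged over 100 TPM in that group and 5 under 10 TPM. Fosl1, an AP-1 subunit, and Egr3, a zinc finger factor, were at the low end, with group means of 0.36 to 1.92 TPM for Fosl1 and 0.48 to 3.85 TPM for Egr3.

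Windows of 250 bases before to 50 bases after the start were found in RefSeq (build GRCm38.p6) for 28 of the 38 genes. The 10 genes without a window were Egr1, Egr3, Fosl1, Ier2, Myc, Rasd1, Rgs1, Siah2, Trib1 and Zfp36l2. The 250 bases upstream of the start are shown for 6 of the genes described below, chosen after their values were seen: Fos, the namesake of the class; Fosl2, Nr4a2 and Atf3, which differ most between liver and spleen on the higher side; Egr2, which runs the other way in Treg; and Btg2, which holds the full CREB site. Matches to the searched motifs are in capitals: TGACGTCA, the full CREB site; TGACG, the short CREB site, which lies inside the full site and is counted there too; TGANTCA, the AP-1 site; the CArG box bound by SRF; GCGTGGGCG, the EGR site; and GGGNNTTCC, an NF-kB site, all on both strands. They are Fos at chr12:85473640-85473889 on the plus strand, Nr4a2 at chr2:57124004-57124253 on the minus strand, Fosl2 at chr5:32136222-32136471 on the plus strand, Atf3 at chr1:191183334-191183583 on the minus strand, the window of Egr2 at chr10:67537619-67537868 on the plus strand, and Btg2 at chr1:134079156-134079405 on the minus strand.
Fos: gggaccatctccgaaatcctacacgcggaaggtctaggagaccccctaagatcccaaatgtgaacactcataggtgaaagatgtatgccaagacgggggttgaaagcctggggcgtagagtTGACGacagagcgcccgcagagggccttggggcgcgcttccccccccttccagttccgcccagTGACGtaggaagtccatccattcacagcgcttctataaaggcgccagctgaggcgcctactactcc
Nr4a2: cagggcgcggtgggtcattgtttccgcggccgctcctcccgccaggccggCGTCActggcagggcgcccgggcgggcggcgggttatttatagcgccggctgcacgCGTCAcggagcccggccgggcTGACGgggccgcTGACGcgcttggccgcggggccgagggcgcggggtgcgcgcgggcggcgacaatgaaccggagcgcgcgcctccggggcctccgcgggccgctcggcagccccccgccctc
Fosl2: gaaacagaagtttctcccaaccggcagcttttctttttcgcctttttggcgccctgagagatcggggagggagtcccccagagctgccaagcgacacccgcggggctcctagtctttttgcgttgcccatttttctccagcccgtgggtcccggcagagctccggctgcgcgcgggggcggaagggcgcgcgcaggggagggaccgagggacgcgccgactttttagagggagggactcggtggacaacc
Atf3: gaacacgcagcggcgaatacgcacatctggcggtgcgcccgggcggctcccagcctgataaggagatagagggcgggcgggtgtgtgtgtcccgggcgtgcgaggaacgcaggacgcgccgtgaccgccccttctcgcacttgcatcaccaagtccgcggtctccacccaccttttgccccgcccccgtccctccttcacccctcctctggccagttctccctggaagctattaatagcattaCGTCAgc
Egr2: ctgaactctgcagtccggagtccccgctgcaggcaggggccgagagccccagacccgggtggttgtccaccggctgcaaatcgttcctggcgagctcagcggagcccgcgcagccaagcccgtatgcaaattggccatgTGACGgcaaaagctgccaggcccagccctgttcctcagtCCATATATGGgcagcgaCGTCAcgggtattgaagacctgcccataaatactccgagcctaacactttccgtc
Btg2: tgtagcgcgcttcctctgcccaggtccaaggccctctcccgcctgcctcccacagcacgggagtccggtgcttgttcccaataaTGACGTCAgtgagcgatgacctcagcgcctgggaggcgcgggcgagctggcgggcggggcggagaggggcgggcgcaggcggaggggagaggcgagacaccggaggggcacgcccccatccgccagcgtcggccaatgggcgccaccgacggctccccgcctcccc
The short site was added to the search after these windows had been seen. Fos, a partner of JUN proteins in AP-1, had TGACG from 129 and from 66 bases before its start, and Nr4a2 held the short site at 4 places. Btg2 held the full site from 166 bases before its start, Egr2 held a CArG box between a pair of short sites, and the Fosl2 window held none of the 6 motifs. Over the 28 genes, the short site was in the 300 bases of 16 (57.1%), against 23% of all 27025 genes with a window, and the full site in 4 (14.3%), namely Btg2, Ppp1r15a, Maff and Dusp1, against 2.03%. The CArG box was in Zfp36 and Egr2 (7.14%, against 1.81%), the AP-1 site in Csrnp1 and Zfp36l1 (7.14%, against 8.97%), the EGR site in Maff (3.57%, against 0.707%) and the NF-kB site in Ppp1r15a (3.57%, against 6.58%). These are matches of letters, not sites shown to be bound. A gene was counted if any of its windows matched. The 28 genes had 38 windows and all 27025 genes had 32851, so the shares are not fully alike. The 27025 genes were also neither limited to those that passed the filter on low counts nor matched to the 28 for base composition.

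The spleen controls are described first, because they set what the spleen comparisons can show. Controls 2 and 3 both lay below the other 6 libraries in 32 of 38 genes in spleen Treg (84.2%, against 7.62% of all genes tested) and in 32 of 38 in spleen Tconv (84.2%, against 10.6%), and in none did both lie above them. Their mean level was a median of 39.0% of control 1 over the 38 genes in Treg and 42.5% in Tconv, where all genes tested had medians of 99.6% and 98.2%. These are descriptions with no test, since the libraries were singled out for these genes.

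The depth of the gap depended on the gene. Fos had 925, 797, 856, 957 and 1116 CPM in CCl4 spleen Treg libraries 1 to 5, against 843, 25.1 and 22.6 CPM in control libraries 1 to 3. In spleen Tconv, Fos had 725, 735, 711, 821 and 892 CPM with CCl4, against 804, 26.4 and 19.4 CPM in controls. Control 1 thus lay among the CCl4 libraries for Fos in both cell types, and the other controls had almost none of it. Dusp1 had 1730, 1733, 1450, 1428 and 1696 CPM in CCl4 spleen Treg, against 1315, 107 and 97.1 CPM in controls. In spleen Tconv, Dusp1 had 765, 869, 828, 850.3 and 912 CPM with CCl4, against 878, 55.2 and 56.3 CPM in controls. Dusp1 repeated the pattern of Fos, except that control 1 of Treg was just below the CCl4 range. Ppp1r15a, a phosphatase subunit that restores translation after stress, stood at 9.36% of control 1 in Treg. Dusp1 and Ppp1r15a are shown for their gap and were chosen after their values were seen. In Treg the exceptions were Egr1, Egr2, Egr3, Myc, Btg1 and Pim1, and in Tconv Fosl1, Atf3, Egr2, Egr3, Myc and Pim1, for which controls 2 and 3 were not both below the other 6 libraries. The mitochondrial share of these 4 libraries was 0.704% to 0.801%, within the 0.577% to 1.12% of all 32, and their totals were 27067104 to 54093946 estimated counts.

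**Figure D2:**
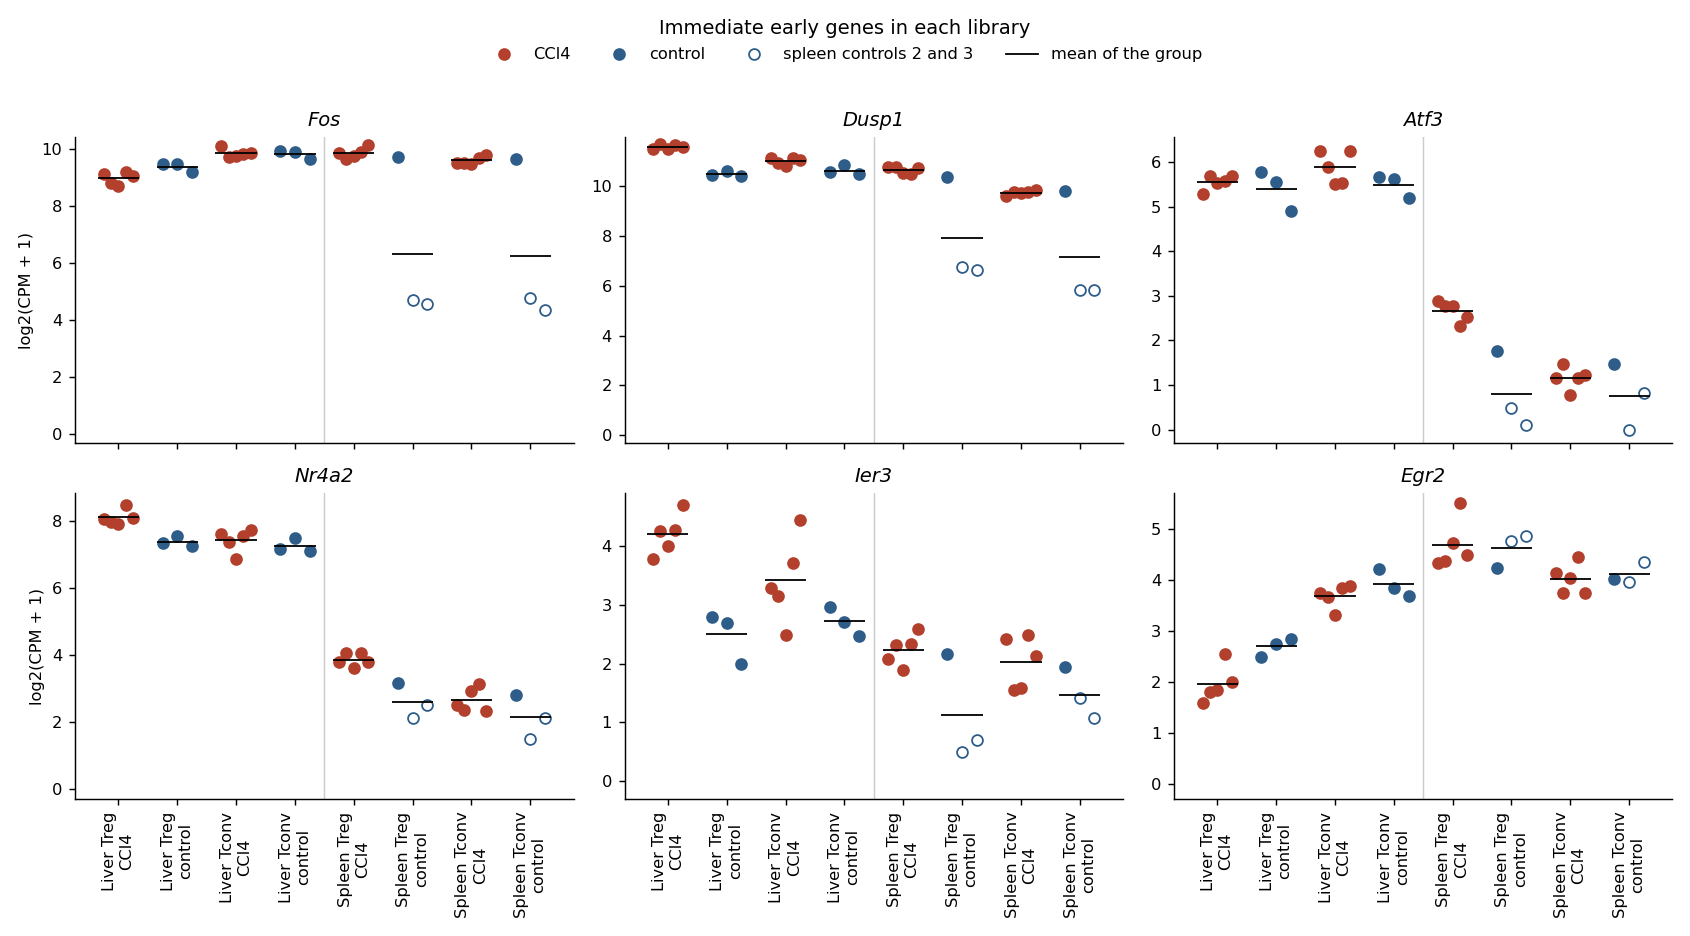
Values of Fos, Dusp1, Atf3, Nr4a2, Ier3 and Egr2 in every library, as log2(CPM + 1), by population, with CCl4 left of control. Each point is a library, lines are group means and open circles are spleen controls 2 and 3, which lie far below the rest for Fos and Dusp1 and within the other libraries for Egr2.

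In liver Treg, 5 of the 38 genes rose with CCl4 and 3 fell, with 30 not called (edgeR quasi-likelihood test, called at a Benjamini-Hochberg adjusted p under 0.05). Of all genes tested, 14.9% were called, 7.55% higher and 7.34% lower. The members called were Ier3, Fosl2, Zfp36l1, Nr4a2 and Ier5 as higher and Egr2, Gadd45a and Btg2 as lower. The median log2 fold change was 0.14 over the 38 genes and -0.0008 over all genes tested. The genes called moved in both directions, and the count depended on the spread shared with the spleen libraries, as given below.

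Of the AP-1 subunits, Fosl2, a FOS relative, had 243, 263, 298, 297 and 348 CPM in CCl4 liver Treg, against 163, 164 and 136 CPM in controls. Every CCl4 library was above every control, a log2 fold change of 0.91 ± 0.22 (SE, adjusted p = 0.00515). Fos had 563, 443, 418, 582 and 529 CPM with CCl4, against 702, 703 and 589 CPM in controls. All 5 CCl4 libraries were below all 3 controls, by a log2 fold change of -0.39 ± 0.78 that was not called (adjusted p = 0.823). The other 7 subunits were not called, and Atf3, a stress-induced CREB-family factor, had 37.8, 50.8, 44.9, 46.6 and 50.2 CPM with CCl4, against 53.6, 45.5 and 28.9 CPM in controls, so that its groups overlapped.

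Among the EGR and NR4A factors, Nr4a2, an orphan nuclear receptor induced through the antigen receptor, had 267, 254, 241, 359.5 and 275 CPM in CCl4 liver Treg, against 163, 189 and 152 CPM in controls. The groups were apart, at a log2 fold change of 0.73 ± 0.24 (adjusted p = 0.0402). Egr2, a zinc finger factor that restrains T cell activation, had 2.0, 2.45, 2.59, 4.82 and 3.0 CPM with CCl4, against 4.61, 5.69 and 6.16 CPM in controls. It was low throughout and fell by 0.88 ± 0.26 on the log2 scale (adjusted p = 0.0216), although CCl4 library 4 reached above the lowest control.

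Of the genes of RNA decay and growth arrest, Zfp36l1, which binds AU-rich mRNA tails and promotes their decay, had 446, 426, 559, 466 and 526 CPM in CCl4 liver Treg, against 284, 279 and 266 CPM in controls. It had the smallest adjusted p of the 38 (log2 fold change 0.81 ± 0.13, adjusted p = 4.94e-05), with no overlap. Btg2, an antiproliferative partner of the mRNA deadenylase, had 589, 530.3, 452, 476 and 426 CPM with CCl4, against 725, 655 and 640.4 CPM in controls. The groups were apart and Btg2 fell by 0.44 ± 0.12 on the log2 scale (adjusted p = 0.0129).

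Of the stress and damage genes, Ier3, a regulator of survival under stress, had 12.8, 18.1, 15.01, 18.4 and 24.9 CPM in CCl4 liver Treg, against 5.97, 5.5 and 3.0 CPM in controls. This was the largest change of the 38 there, with all CCl4 libraries above all controls (log2 fold change 1.88 ± 0.50, adjusted p = 0.00953). Gadd45a, a growth arrest protein induced by DNA damage, had 37.5, 31.0, 31.5, 30.5 and 28.5 CPM with CCl4, against 55.8, 45.7 and 42.6 CPM in controls. Gadd45a was below its controls in every CCl4 library and fell by 0.60 ± 0.19 (log2, adjusted p = 0.0353). Ier5, a nuclear regulator that activates the heat shock factor HSF1, had 259, 282, 259.8, 286 and 282 CPM with CCl4, against 211, 223 and 192 CPM in controls, again with no overlap (log2 fold change 0.39 ± 0.13, adjusted p = 0.044).

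The fit pools the spread of all 8 groups, so the libraries of the spleen enter the test of the liver through that spread. Library values were apart for 17 of the 38 genes in liver Treg, 12 higher and 5 lower (19.1% of all genes tested were apart, 10% higher and 9.02% lower), and 10 of these genes were not called, among them Dusp1. Dusp1 had 2841, 3222, 2807, 3212 and 3006 CPM in CCl4 liver Treg, against 1385, 1525 and 1354 CPM in controls. Its log2 fold change was 1.09 ± 0.64 (adjusted p = 0.288) with all libraries and 1.08 ± 0.09 (adjusted p = 1.1e-08) in a fit without spleen controls 2 and 3. That fit called 21 of the 38 genes, 12 higher and 9 lower, where 12.8% of all genes tested were called, and all 8 calls above were kept. Besides Dusp1 it added Rgs2 (0.83), Gadd45b (0.63), Rgs1 (0.60), Csrnp1 (0.56), Zfp36 (0.51) and Junb (0.32) as higher, and Trib1 (-0.64), Ier2 (-0.41), Rhob (-0.40), Fos (-0.39), Jun (-0.37) and Ppp1r15a (-0.26) as lower, each a log2 fold change. Leaving out any 1 of the 3 liver Treg controls left 4 calls in place of 8, and leaving out CCl4 library 4 or 5 left 5. Over all genes tested, leaving out control 1, 2 or 3 left 1778 of 17600, 1946 of 17667 and 2049 of 17690 called. Without CCl4 library 4 or 5 it was 2159 of 17135 and 2291 of 17116.

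Markers of other cells also differed in liver Treg. The 5 pancreatic acinar markers summed to 0.186 to 1.30 CPM with CCl4, against 969 CPM in control 1, 1.33 CPM in control 2 and 3.17 CPM in control 3. The 5 endothelial markers summed to 0.365 to 4.39 CPM with CCl4, against 3.47 to 17.1 CPM in controls. All 4 acinar markers tested and 2 of the 4 endothelial markers tested were lower with CCl4, and their part in the results was not tested. In bulk samples, fewer cells of a type and less RNA per cell cannot be told apart.

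Of related genes outside the 38, the 19 upstream regulators of immediate early transcription had 5 higher and 4 lower in liver Treg. They included Elk3, an ETS partner of SRF (log2 fold change 0.88 ± 0.11, adjusted p = 1.7e-06). Of the 10 AP-1 partners tested, Jdp2, a repressor of AP-1, was higher (2.02 ± 0.39, adjusted p = 0.00048) and Bach2, a repressor that competes for AP-1 sites, was lower (-1.77 ± 0.21, adjusted p = 4.6e-07). Of 9 NF-kB feedback genes 3 were higher, among them Nfkbiz (0.74 ± 0.26, adjusted p = 0.049) and Nfkbia, the inhibitor of NF-kB (0.69 ± 0.22, adjusted p = 0.032). Of 25 other rapidly induced genes, 6 were higher and 3 lower, led by Id2, an inhibitor of E proteins (1.80 ± 0.19, adjusted p = 7.7e-08). None of the 8 ERK feedback inhibitors was called.

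In liver Tconv, 0 of the 38 genes were called with CCl4 by edgeR and 0 by DESeq2, and 3 had an unadjusted p under 0.05. Of all genes tested, 0.326% were called, 0.146% higher and 0.181% lower. Library values were apart for 4 of the 38, all higher with CCl4 (6.65% of all genes tested were apart, 3.11% higher and 3.54% lower). The median log2 fold change of the 38 was 0.11. Fos had 1089, 844, 870.2, 908 and 919 CPM in CCl4 liver Tconv, against 985, 952 and 804 CPM in controls. Fosl2 had 295, 264, 297, 302 and 284 CPM with CCl4, against 322, 294 and 330.3 CPM in controls. Both genes overlapped between the groups, and their log2 fold changes were 0.02 ± 0.79 for Fos and -0.13 ± 0.21 for Fosl2. Spry1, an ERK feedback inhibitor outside the 38, was higher with CCl4 (1.69 ± 0.31, adjusted p = 0.033). Markers of stellate cells and fibroblasts summed to 22.4 to 69.0 CPM with CCl4, against 1.94 to 11.8 CPM in controls. Pancreatic acinar markers ran the other way, at 0.062 to 1.20 CPM, against 1.84 to 50.5 CPM. Their part in the results was not tested. Whether the CCl4 effect differed between liver Treg and liver Tconv was not tested.

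In spleen Treg, 10 of the 38 genes were called higher with CCl4 and 0 lower, where 1.18% of all genes tested were called, 0.758% higher and 0.420% lower. Library values were apart for 17, all higher with CCl4 (10.9% of all genes tested were apart, 6.03% higher and 4.83% lower). The median log2 fold change of the 38 was 1.06, and 29 had an unadjusted p under 0.05. With spleen controls 2 and 3 left out, 1 control library remained and the fit called 0 of the 38 genes (11 with an unadjusted p under 0.05) and 0.00% of all genes tested. The smallest adjusted p was then 0.24, for Csrnp1. Without control 1, by contrast, 28 of the 38 were called, and 342 of all 17739 genes tested. Without control 2 or control 3 it was 0 of the 38. Leaving out 1 CCl4 library gave 4 to 6 calls. Control 1 alone lay below the whole CCl4 range in 19 of the 38 genes (50%, against 21.2% of all genes tested), within it in 17 and above it in 2.

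Among the genes called, Atf3 and Rasd1 had the largest differences, both at a low level. Atf3 had 6.34, 5.86, 5.85, 3.98 and 4.72 CPM in CCl4 spleen Treg, against 2.41, 0.403 and 0.0728 CPM in controls (log2 fold change 2.60 ± 0.54, adjusted p = 0.0142). Rasd1, a small GTPase induced by dexamethasone, had 4.75, 6.05, 6.73, 10.1 and 9.02 CPM with CCl4, against 2.89, 0.875 and 0.461 CPM in controls (2.40 ± 0.56, adjusted p = 0.0281). For both genes every CCl4 library was above control 1 as well as above controls 2 and 3. Nr4a2 had 12.8, 15.8, 11.3, 15.7 and 12.9 CPM with CCl4, against 7.94, 3.38 and 4.74 CPM in controls (1.38 ± 0.28, adjusted p = 0.0129). Fosl2 had 11.01, 11.3, 11.7, 11.3 and 10.3 CPM with CCl4, against 8.66, 2.52 and 3.28 CPM in controls (1.25 ± 0.25, adjusted p = 0.0133). Both were again apart from all 3 controls, and both were far below their liver levels.

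The other 6 called genes were more abundant. Gadd45b, an activator of stress kinases, had 315, 294, 258, 334 and 339 CPM in CCl4 spleen Treg, against 206, 45.0 and 47.4 CPM in controls (log2 fold change 1.63 ± 0.42, adjusted p = 0.0455). Csrnp1, a nuclear protein induced through AXIN1, had 253, 238, 238, 213 and 208 CPM with CCl4, against 144, 59.5 and 65.1 CPM in controls (1.36 ± 0.29, adjusted p = 0.0189). Jun, the partner of FOS proteins, had 1046, 899, 990.1, 894 and 969.7 CPM with CCl4, against 737, 263 and 196 CPM in controls (1.27 ± 0.31, adjusted p = 0.0402). In these genes control 1 lay between the CCl4 libraries and the other controls. Trib1, a pseudokinase that directs proteins to degradation, had 206, 199, 191, 165 and 156 CPM with CCl4, against 133, 48.4 and 49.8 CPM in controls (1.25 ± 0.31, adjusted p = 0.0398). Ier2, a nuclear regulator, had 636, 669.7, 673, 614 and 676 CPM with CCl4, against 549.9, 239 and 215 CPM in controls (0.97 ± 0.24, adjusted p = 0.0402). Zfp36l1 had 217, 217, 250.3, 231 and 240.4 CPM with CCl4, against 183, 154 and 138 CPM in controls (0.55 ± 0.13, adjusted p = 0.0306). For Trib1, Ier2 and Zfp36l1 too, the lowest CCl4 library was above the highest control.

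Markers of myeloid cells moved with the treatment in spleen Treg in all 3 controls, including control 1. The 14 myeloid markers summed to 71.8 to 139.5 CPM with CCl4, against 30.3, 23.5 and 30.1 CPM in control libraries 1 to 3, and 3 of the 14 were called higher, namely C1qa, C1qb and S100a8. Clec4f, the marker of resident liver macrophages, was at or near 0 in spleen Treg of either treatment, with group means of 0.0101 CPM with CCl4 and 0.0059 CPM in controls. Other lists were also wholly apart from the 3 controls. Hepatocyte markers summed to 19.7 to 29.7 CPM with CCl4, against 6.48 to 9.99 CPM in controls, and dendritic markers to 6.62 to 8.72 CPM, against 2.59 to 4.81 CPM. Erythroid markers summed to 12.9 to 64.9 CPM with CCl4, against 3.96 to 8.18 CPM in controls, and endothelial markers to 0.956 to 4.54 CPM, against 0.121 to 0.833 CPM. The part of any of these cells in the result was not tested. Of the 25 other rapidly induced genes, 9 were higher and 1 lower, with Bhlhe40, a basic helix-loop-helix repressor, at a log2 fold change of 1.87 ± 0.35 (adjusted p = 0.0096). Of the 9 NF-kB feedback genes 3 were higher, led by Tnfaip3, a ubiquitin-editing brake on NF-kB (2.07 ± 0.49, adjusted p = 0.032).

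In spleen Tconv, 5 of the 38 genes were called higher with CCl4 and 0 lower, where 1.07% of all genes tested were called, 0.653% higher and 0.414% lower. Library values were apart for 9, all higher with CCl4 (8.81% of all genes tested were apart, 4.10% higher and 4.71% lower). The median log2 fold change was 0.75, with 24 unadjusted p under 0.05. With controls 2 and 3 of both spleen populations left out, 0 were called (6 with an unadjusted p under 0.05), without control 1 it was 28, and without control 2 or control 3 alone it was 0. The fit without control 1 called 664 of all 17701 genes it tested. Without CCl4 library 1, 2 or 5, 3 of the 38 genes were called. Control 1 lay below the CCl4 range in 9 of the 38 (23.7%, against 12.4% of all genes tested), within it in 24 and above it in 5.

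Siah2, a ubiquitin ligase of the hypoxia response, had 111, 121, 102, 93.5 and 128 CPM in CCl4 spleen Tconv, against 79.9, 17.2 and 18.1 CPM in controls (log2 fold change 1.52 ± 0.36, adjusted p = 0.0337). Trib1 had 54.7, 38, 41.6, 50.1 and 34.4 CPM with CCl4, against 30.8, 12.1 and 6.76 CPM in controls (1.39 ± 0.32, adjusted p = 0.0281). Csrnp1 had 226, 214, 217, 233 and 210.5 CPM with CCl4, against 176, 45.2 and 46.4 CPM in controls (1.30 ± 0.29, adjusted p = 0.0281). All 5 CCl4 libraries of these genes were above all 3 controls, control 1 being the nearest. Gadd45g, a growth arrest protein of the Gadd45 family, had 17.4, 15.1, 13.7, 16.9 and 15.7 CPM with CCl4, against 10.2, 5.08 and 6.09 CPM in controls (1.13 ± 0.24, adjusted p = 0.0205). Fosl2 had 9.54, 10.01, 9.46, 17.7 and 10.9 CPM with CCl4, against 7.56, 4.15 and 5.0 CPM in controls (1.02 ± 0.25, adjusted p = 0.039). These too did not overlap. Sums of other cells' markers were apart here too, although no myeloid, hepatocyte or CD8 T cell marker was called by itself. Myeloid markers summed to 22.6 to 47.2 CPM with CCl4, against 14.0 to 19.6 CPM in controls, and hepatocyte markers to 5.33 to 11.03 CPM, against 2.92 to 4.54 CPM. The CD8 T cell markers ran lower, at 19.1 to 23.5 CPM with CCl4, against 25.7 to 28.8 CPM in controls. Their part in the result was not tested. Outside the 38, Ccrl2, a chemerin-binding receptor, was higher with CCl4 (1.54 ± 0.25, adjusted p = 0.0036), as was Dusp5, a nuclear ERK phosphatase (1.43 ± 0.34, adjusted p = 0.034).

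**Figure D3:**
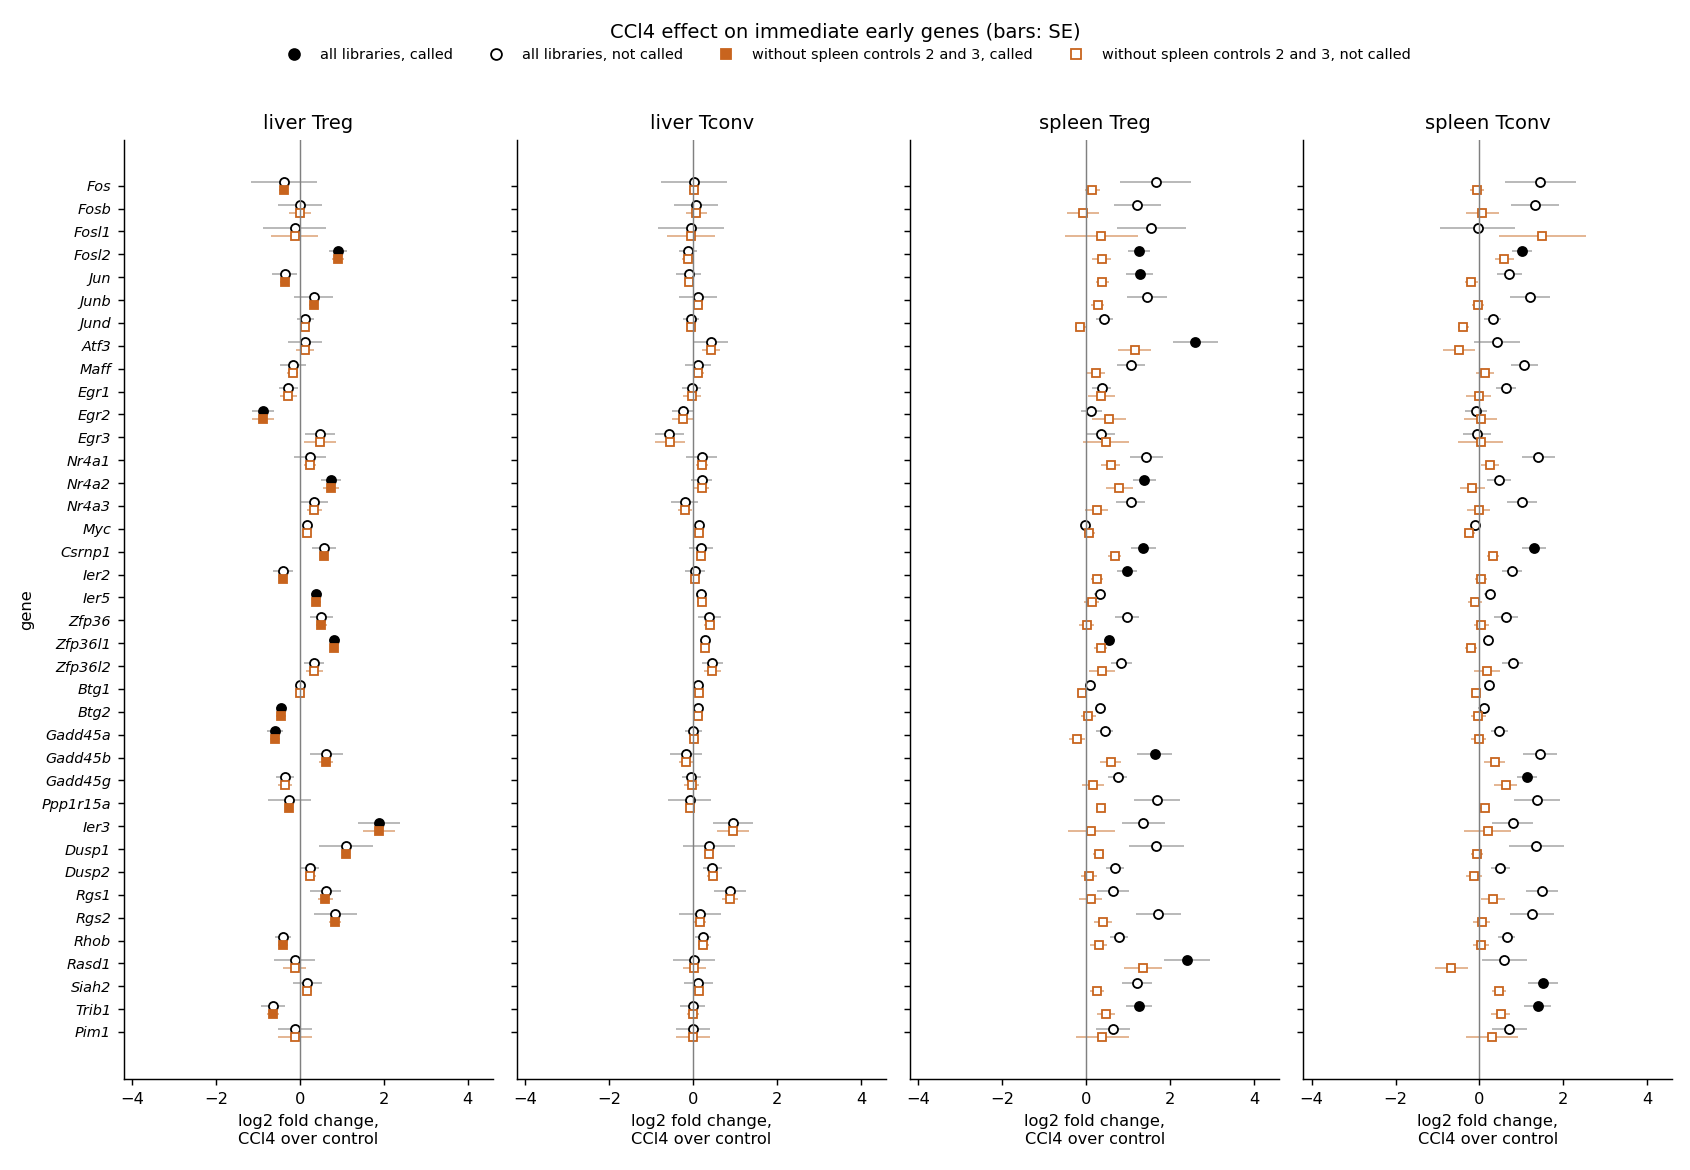
Log2 fold change of CCl4 against control for each of the 38 genes in the 4 populations, with SE bars; black circles are the fit of all libraries, orange squares the fit without spleen controls 2 and 3, and filled symbols are called. In spleen the black circles sit mostly to the right of 0 and the orange squares are all open, while in liver Treg more orange squares than black circles are filled.

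Over the 4 populations, 17 of the 38 genes were called in at least 1 CCl4 comparison and 21 in none. The matching share over all genes tested was not counted, and liver Treg alone called 14.9% of them. The comparison of the tissues was tested as a difference of CCl4 effects, liver minus spleen. In Treg 9 of the 38 genes had a lower effect in liver and 0 a higher one (5.48% of all genes tested were called, 3.46% lower). The differences were -2.53 ± 0.72 for Rasd1 (adjusted p = 0.0353), -2.49 ± 0.67 for Atf3 (0.0238), -1.90 ± 0.42 for Trib1 (0.00588), -1.63 ± 0.43 for Jun (0.0204) and -1.38 ± 0.33 for Ier2 (0.0107), on the log2 scale. For Rhob, a small GTPase, the difference was -1.18 ± 0.28 (adjusted p = 0.0106), for Gadd45g -1.10 ± 0.32 (0.0365), for Gadd45a -1.03 ± 0.28 (0.0257) and for Btg2 -0.77 ± 0.18 (0.00736). Without spleen controls 2 and 3, 5 were called (1.77% of all genes tested): Trib1 (-1.11), Jun (-0.75), Ier2 (-0.66) and Ppp1r15a (-0.60) as lower and Dusp1 (0.79) as higher. Leaving out 1 library gave 5 calls without liver Treg control 1 or 2 and 22 without spleen Treg control 1. The fit without spleen Treg control 1 called 794 of all 17739 genes tested. The count was 4 without spleen Treg control 2 and 2 without spleen Treg control 3. In Tconv 0 were called by edgeR (10 with an unadjusted p under 0.05, and 1 called by DESeq2), where 0.0874% of all genes tested were called. Leaving out spleen Tconv control 1 gave 20 calls, and 220 of all 17701 genes tested.

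The liver was next set against the spleen in the CCl4 libraries alone, 5 against 5, so that the levels of the spleen controls do not enter. These libraries are also the CCl4 arm of the comparisons above. In Treg 11 of the 38 genes were higher in liver and 8 lower, where 53.8% of all genes tested were called, 25.9% higher and 27.9% lower. In Tconv 20 were higher and 2 lower, where 48.5% of all genes tested were called, 23.6% higher and 24.9% lower. Library values were apart for 13 genes higher and 10 lower in Treg (39.4% of all genes tested, 17.9% higher and 21.5% lower) and for 21 higher and 2 lower in Tconv (33.1%, 15.3% higher and 17.8% lower). The medians were 0.11 in Treg and 0.82 in Tconv, against 0.04 over all genes tested in each. In both cell types the count rose in the fit without spleen controls 2 and 3, given below.

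Among the genes higher in liver, Fosl2, Nr4a2 and Atf3 had the largest differences in both cell types. Fosl2 had 243 to 348 CPM in CCl4 liver Treg, against 10.3 to 11.7 CPM in CCl4 spleen Treg (log2 fold change 4.70 ± 0.22, adjusted p = 2.56e-16). In Tconv it had 264 to 302 CPM in liver, against 9.46 to 17.7 CPM in spleen (4.65 ± 0.22, adjusted p = 5.13e-16). The level of Fosl2 in every liver library of either cell type, controls included, exceeded that in every spleen library. Nr4a2 had 241 to 359.5 CPM in CCl4 liver Treg, against 11.3 to 15.8 CPM in CCl4 spleen Treg (4.35 ± 0.24, adjusted p = 7.51e-15). In Tconv, Nr4a2 had 194, 167, 116, 188 and 213 CPM in liver, against 4.65, 4.15, 6.57, 7.71 and 4.0 CPM in spleen (5.03 ± 0.25, adjusted p = 1.8e-15). Nr4a2 also had no overlap between the tissues in either cell type. Atf3 had 37.8 to 50.8 CPM in CCl4 liver Treg, against 3.98 to 6.34 CPM in CCl4 spleen Treg (3.10 ± 0.39, adjusted p = 1.17e-07). In Tconv, Atf3 had 74.8, 57.8, 44.4, 45.4 and 74.4 CPM in liver, against 1.23, 1.78, 0.697, 1.24 and 1.33 CPM in spleen (5.56 ± 0.45, adjusted p = 6.42e-11).

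Nr4a3, of the same family as Nr4a2, had 108, 105, 105, 98.3 and 93.4 CPM in CCl4 liver Treg, against 16.5, 14.0, 20.4, 12.1 and 15.4 CPM in CCl4 spleen Treg (log2 fold change 2.70 ± 0.30, adjusted p = 1.3e-08). In Tconv, Nr4a3 had 103, 54.4, 66.4, 73.5 and 58.6 CPM in liver, against 11.2, 12.7, 11.9, 8.51 and 8.79 CPM in spleen (2.74 ± 0.30, adjusted p = 1.92e-08). Nr4a1 was higher too, by 1.55 in Treg and 2.01 in Tconv, so that all 3 members of the family were higher in liver in both cell types. Rgs1, which shortens G protein signals from chemokine receptors, had 1538, 772, 619.5, 860.4 and 927 CPM in CCl4 liver Tconv, against 128, 116, 124, 125 and 111 CPM in CCl4 spleen Tconv (2.96 ± 0.34, adjusted p = 3.84e-08). Liver library 1 was the highest and even the lowest liver library was well above the spleen.

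Egr2 ran the other way in Treg. It had 2.0 to 4.82 CPM in CCl4 liver Treg, against 19.1, 19.7, 25.5, 44.3 and 21.5 CPM in CCl4 spleen Treg (log2 fold change -3.13 ± 0.24, adjusted p = 1.23e-11). In Tconv, Egr2 had 12.3, 11.7, 8.87, 13.3 and 13.6 CPM in liver, against 16.5, 12.3, 15.4, 20.6 and 12.3 CPM in spleen, and was not called (-0.37 ± 0.22, adjusted p = 0.173). Egr3 was lower in liver in both cell types, by a log2 fold change of -2.49 in Treg and -1.94 in Tconv, as was Myc, the growth regulator (-0.39 and -0.72). Egr1 was lower in Treg (-0.79).

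Besides these, Rgs2, Ier3, Rhob, Zfp36l1 and Gadd45a were higher in liver in both cell types, which makes 11 genes, or 11 of 11 in Treg and 11 of 20 in Tconv. How often calls were shared by the cell types over all genes tested was not counted, so this overlap has no background. The log2 fold changes of Rgs2, which acts on Gq-coupled receptors, were 2.52 in Treg and 1.74 in Tconv, and those of Ier3 2.24 and 1.74. For Rhob they were 1.58 in Treg and 2.28 in Tconv, for Zfp36l1 1.07 and 0.37, and for Gadd45a 0.40 and 1.06, while Rgs1 was higher by 1.42 in Treg. Those called in Tconv alone were Rasd1 (1.72), Btg2 (1.62), Maff (1.44), Fosb (1.26), Zfp36l2 (0.90), Pim1 (0.84) and Btg1 (0.80). Gadd45g was lower in Treg (-0.67) and higher in Tconv (0.86), and so was Dusp2, a nuclear ERK phosphatase (-0.98 and 0.48). Ier2 (-0.92) and Ier5 (-0.52) were lower in Treg. Another 12 genes, Fos, Jun and Junb among them, were called in neither, and the difference between the cell types was not tested. Some of the 12 were apart between the tissues all the same. In Treg, Fos had 418 to 582 CPM in CCl4 liver, against 797 to 1116 CPM in CCl4 spleen. Dusp1 ran the other way in Treg, at 2807 to 3222 CPM in liver, against 1428 to 1733 CPM in spleen. Spleen controls 2 and 3 entered these tests through the shared spread. In the fit without spleen controls 2 and 3, 27 of the 38 were called in Treg (15 higher, 12 lower; 49.5% of all genes tested) and 30 in Tconv (28 higher, 2 lower; 44.0%).

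**Figure D4:**
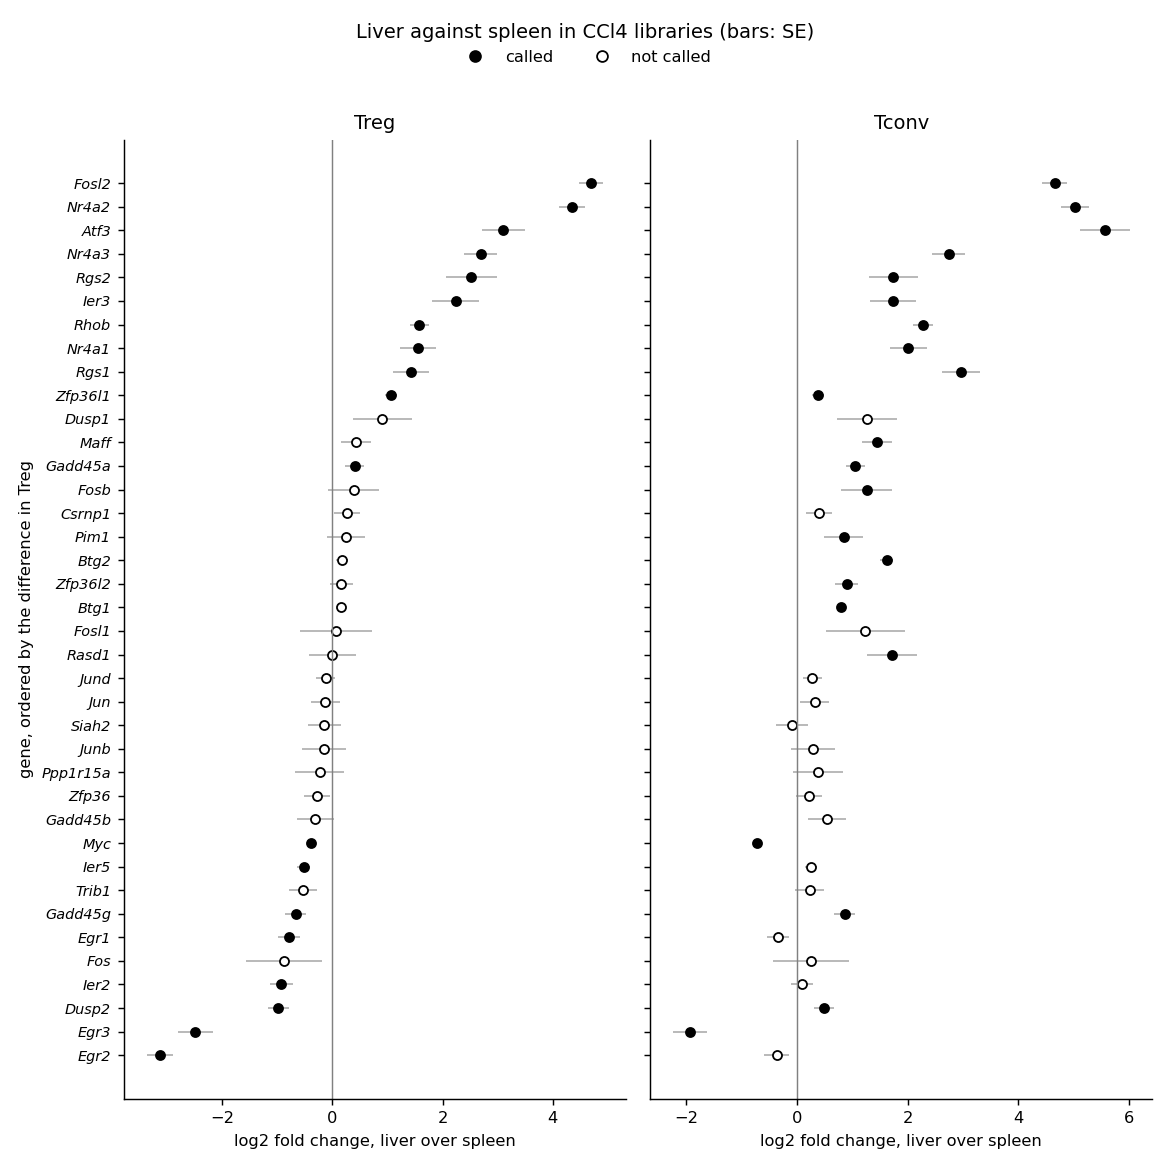
Log2 fold change of liver against spleen in the CCl4 libraries for each of the 38 genes, Treg in the left panel and Tconv in the right, with SE bars and filled symbols for called genes. Fosl2, Nr4a2 and Atf3 lie farthest to the right in both panels, and Egr2 lies farthest to the left in Treg at -3.13 but near 0 in Tconv.

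Values of other lists stood beside these. All 13 heat shock genes tested were higher in liver in both cell types, with a median log2 fold change of 1.23 in Treg and 1.47 in Tconv. They summed to 12850 to 15230 CPM in CCl4 liver Treg, against 3962 to 6289 CPM in CCl4 spleen Treg, and to 22790 to 34310 CPM in CCl4 liver Tconv, against 4368 to 7096 CPM in CCl4 spleen Tconv. Hspa1a, an inducible HSP70 chaperone, was higher by 6.15 ± 0.45 in Treg and 6.74 ± 0.47 in Tconv. Hspa1b, its near-identical copy, was higher by 4.83 ± 0.43 in Treg and 5.34 ± 0.44 in Tconv, and how shared reads were split between the copies is uncertain. All 7 hepatocyte markers were higher in liver: they summed to 152 to 462 CPM in CCl4 liver Treg, against 19.7 to 29.7 CPM in CCl4 spleen Treg, and to 161 to 504 CPM in CCl4 liver Tconv, against 5.33 to 11.03 CPM in CCl4 spleen Tconv. Stellate and fibroblast markers summed to 6.71 to 58.1 CPM in CCl4 liver Treg, against 1.60 to 8.53 CPM in CCl4 spleen Treg, and to 22.4 to 69.0 CPM in CCl4 liver Tconv, against 0.647 to 1.44 CPM in CCl4 spleen Tconv. Dendritic markers summed to 21.4 to 43.1 CPM in liver, against 6.62 to 8.72 CPM in spleen, in CCl4 Treg. In CCl4 Tconv it was 9.42 to 18.4 CPM, against 2.49 to 4.43 CPM. Lower in liver Treg were NK markers (0.275 to 1.52 CPM, against 4.05 to 7.09 CPM) and pancreatic acinar markers (0.186 to 1.30 CPM, against 1.37 to 2.79 CPM). CD8 T cell markers were lower in liver Tconv (8.37 to 19.0 CPM, against 19.1 to 23.5 CPM). Of the 14 myeloid markers, 1 was higher and 9 were lower in liver Treg and 2 were higher and 5 lower in liver Tconv, with sums of 25.1 to 57.6 CPM in CCl4 liver Treg, against 71.8 to 139.5 CPM in CCl4 spleen Treg. The part of any of these lists in the results was not tested. Upstream regulators were split, with 7 of 19 higher and 2 lower in Treg and 5 higher and 4 lower in Tconv, led by Crem, a CREB-family repressor and activator (4.29 ± 0.13 in Treg and 5.07 ± 0.14 in Tconv). Of the 8 ERK feedback inhibitors, Dusp4 was higher in both cell types (2.71 ± 0.29 and 2.97 ± 0.31).

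Treg were set against Tconv within each tissue in the same CCl4 libraries. In liver 4 of the 38 genes were higher in Treg and 12 lower, where 44.7% of all genes tested were called, 21.4% higher and 23.3% lower. In spleen 12 were higher and 3 lower, where 33.4% were called, 16.8% higher and 16.6% lower. Library values were apart for 7 genes higher and 17 lower in liver (32% of all genes tested, 15.6% higher and 16.4% lower) and for 13 higher and 5 lower in spleen (25%, 12.7% higher and 12.3% lower). The median log2 fold change was -0.18 in liver and 0.26 in spleen. In the fit without spleen controls 2 and 3, which enter here through the shared spread, 26 of the 38 were called in liver (9 higher, 17 lower), where 40.5% of all genes tested were called, and 24 in spleen (17 higher, 7 lower), where 29.7% were called.

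In liver, Egr2 had 2.0 to 4.82 CPM in Treg, against 8.87 to 13.6 CPM in Tconv (log2 fold change -2.01 ± 0.24, adjusted p = 3.74e-08). Maff, a small MAF protein that pairs with AP-1 factors, had 8.92, 7.6, 6.73, 6.69 and 7.08 CPM in Treg, against 22.1, 30.5, 25.4, 22.2 and 21.6 CPM in Tconv (-1.72 ± 0.27, adjusted p = 6.09e-06). Btg2 had 426 to 589 CPM in Treg, against 1688, 1471, 1329, 1205 and 1163 CPM in Tconv (-1.47 ± 0.11, adjusted p = 3.83e-12). None of these 3 overlapped between the cell types. Ier2 had 379.5, 378, 317, 364 and 284 CPM in Treg, against 974, 997, 959.8, 875 and 843 CPM in Tconv (-1.43 ± 0.20, adjusted p = 1.09e-06). Zfp36l1 had 426 to 559 CPM in Treg, against 196, 159.7, 173, 170.1 and 162 CPM in Tconv (1.49 ± 0.11, adjusted p = 4.37e-12). Zfp36l1 lay wholly above Tconv in liver, and Ier2 wholly below it. The others called were Trib1 (1.30), Nr4a2 (0.67) and Myc (0.47) as higher, and Zfp36l2 (-1.24), Dusp2 (-1.21), Btg1 (-1.17), Rhob (-1.04), Egr1 (-0.99), Siah2 (-0.78), Ier5 (-0.69) and Gadd45a (-0.47) as lower. Fos, Junb and Dusp1 were not called, although their libraries were apart. Fos had 418 to 582 CPM in Treg, against 844 to 1089 CPM in Tconv. Junb had 3505 to 4856 CPM in Treg, against 5727 to 6842 CPM in Tconv. Dusp1 was the higher in Treg, at 2807 to 3222 CPM, against 1767 to 2207 CPM in Tconv.

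In spleen, Rasd1 had 4.75 to 10.1 CPM in Treg, against 1.39, 1.08, 1.64, 1.38 and 1.85 CPM in Tconv (log2 fold change 2.32 ± 0.46, adjusted p = 0.000176). Atf3 had 3.98 to 6.34 CPM in Treg, against 0.697 to 1.78 CPM in Tconv (2.09 ± 0.43, adjusted p = 0.000274). Fosl1 had 0.811, 0.502, 0.423, 0.9 and 0.606 CPM in Treg, against 0.0267, 0.0923, 0.249, 0.182 and 0.208 CPM in Tconv (2.08 ± 0.71, adjusted p = 0.023). All were low genes whose libraries did not overlap between the cell types. Trib1 had 156 to 206 CPM in Treg, against 34.4 to 54.7 CPM in Tconv (2.07 ± 0.27, adjusted p = 3.16e-07). Gadd45b had 258 to 339 CPM in Treg, against 100.1, 94.8, 85.9, 109.9 and 109 CPM in Tconv (1.62 ± 0.35, adjusted p = 0.000439). The others called were Gadd45g (1.49), Pim1 (1.42), Rgs1 (1.42), Nr4a2 (1.35), Zfp36l1 (0.80), Egr2 (0.75) and Zfp36, which promotes decay of cytokine mRNA (0.74), as higher, and Maff (-0.70), Egr1 (-0.54) and Btg1 (-0.53) as lower.

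Across the tissues, Nr4a2, Zfp36l1 and Trib1 were higher in Treg in both and Maff, Egr1 and Btg1 lower in both. Egr2 was lower in liver Treg and higher in spleen Treg, and the difference was not tested. Of the related lists, Bach2 was lower in Treg in liver (-3.22 ± 0.20) and in spleen (-1.25 ± 0.18), and Dusp4 was higher in both (3.11 ± 0.30 and 3.38 ± 0.31). Ccrl2 was higher in both as well (2.86 ± 0.18 in liver and 3.26 ± 0.19 in spleen).

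Markers of other cells differed between the sorted populations too. The NK markers summed to 0.275 to 1.52 CPM in CCl4 liver Treg, against 16.1 to 48.5 CPM in CCl4 liver Tconv, with 3 of 3 tested lower. In CCl4 spleen Treg the myeloid markers summed to 71.8 to 139.5 CPM, against 22.6 to 47.2 CPM in CCl4 spleen Tconv, with 8 of 14 higher. The B cell markers summed to 28.2 to 43.0 CPM in CCl4 spleen Treg, against 4.17 to 8.46 CPM in CCl4 spleen Tconv, with 4 of 6 higher. Their part in the results was not tested.

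Library number 4 of the CCl4 groups had the lowest Pim1, a survival kinase, in all 4 populations; the gene was chosen for display after its values were seen. Pim1 had 976, 891, 1050, 360.0 and 1015 CPM in CCl4 liver Treg, against 1038, 1154 and 619 CPM in controls. In liver Tconv, Pim1 had 591, 492, 550.4, 197 and 599 CPM with CCl4, against 439, 576 and 446 CPM in controls. In spleen Treg, Pim1 had 926, 843, 836, 228 and 790.1 CPM with CCl4, against 556, 522 and 316 CPM in controls. Each time library 4 was below every control as well as below the other CCl4 libraries. In spleen Tconv, Pim1 had 308, 347, 287, 91.8 and 321 CPM with CCl4, against 221, 173 and 102 CPM in controls, the same order once more. Whether the libraries that share a number come from the same animal is not given in the labels.

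**Figure D5:**
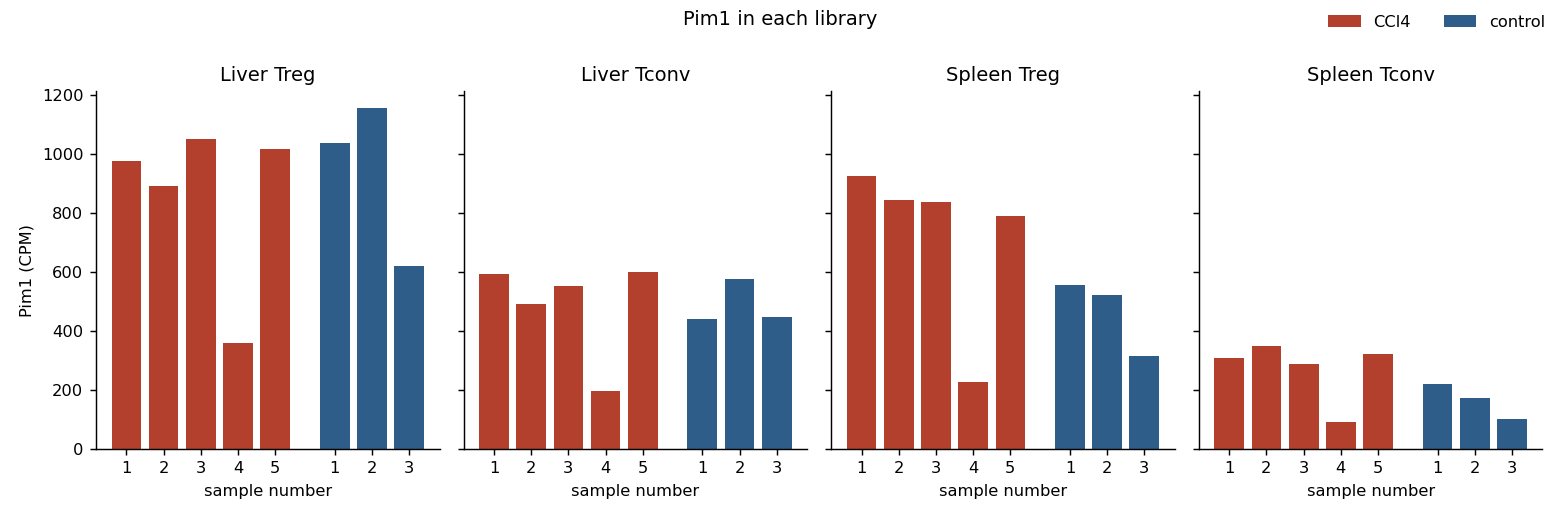
Pim1 in CPM in every library, by population and sample number, CCl4 left of control; bars start at 0. CCl4 library 4 is the lowest bar in all 4 populations, at 360.0, 197, 228 and 91.8 CPM.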

How the data were processed

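RNA of sorted cells was turned into libraries with the Clontech Ultra Low v4 kit and NexteraXT, per the labels' protocols. Per the submitters' processing notes, bcl2fastq 2.19, kallisto 0.44.0 and DESeq2 were used, with GRCm38.p6 as the build; neither the annotation release nor the strand setting is stated in the sources used here, so reads of a gene and its antisense partner cannot be told apart. Per the file headers, the deposited tables hold, for each transcript, the estimated count and the TPM that the authors' kallisto run gave.

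Both were summed to genes with GENCODE M21 names (98.5% of 118489 transcripts; the 1761 unmatched held 0.684% to 0.823% of a library). Reads shared by related genes were split by kallisto's estimate. Gene sums were rounded, filtered with filterByExpr and fitted in edgeR 4.0.16 (R 4.3.3) with TMM factors from 0.9225 to 1.065 and 1 quasi-likelihood fit of 8 groups (24 residual degrees of freedom, common biological coefficient of variation 0.2846). CPM are TMM-normalized. The approximate SE is the size of the log2 fold change over the square root of its F statistic. Adjusted p are Benjamini-Hochberg values over 17159 genes, called under 0.05. The scripts were tested on simulated data with known changes. Alternatives were DESeq2 1.42.0, its size factors in edgeR, no filter, groups fitted alone, libraries left out and a block for sample number. Figures were drawn with matplotlib 3.10.9 in Python 3.11.15.

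The members, lists, tests and the fit without spleen controls 2 and 3 were chosen with earlier results of these data known. Values in every library are given for Fos, for called members with the 10 largest absolute log2 fold changes in each CCl4 comparison and for those with the 5 largest in each tissue or cell type comparison; of the related lists, called genes with the 2 largest changes may be named. Genes shown in figures, and Dusp1, Ppp1r15a and Pim1, were chosen after their values were seen. Promoter windows and motif shares are from RefSeq, GRCm38.p6. No sequence from mouse chromosome 18 is shown.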

Additional observations from a re-analysis of the deposited data

Results flagged for a closer look

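In the 5 CCl4 libraries of each population, the highest or lowest library of each of the 38 genes was compared with the rest by Dixon's ratio of gap to range. Of 152 groups checked, 17 passed the 95% critical value of 0.71, where chance alone gives about 5%, or 1 in 20. Library 4 held 10 of the 17, library 1 held 5, and libraries 2 and 5 held 1 each.

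Pim1 was the lowest in library 4 of all 4 populations. It had 360.0 CPM in liver Treg, with the other libraries at 891 to 1050 CPM, and 197.3 CPM in liver Tconv, with the others at 492 to 599 CPM. It had 227.9 CPM in spleen Treg, with the others at 790.1 to 926 CPM, and 91.85 CPM in spleen Tconv, with the others at 287 to 347 CPM. Library 4 was the highest for 5 other genes. Fosl2 had 17.74 CPM in spleen Tconv, Egr1 290.2 CPM and Egr2 44.26 CPM in spleen Treg, Egr3 9.054 CPM in spleen Tconv, and Nr4a2 359.5 CPM in liver Treg. Rgs1 was the lowest in library 4 of spleen Treg, at 260.5 CPM.

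Library 1 was the highest in liver Treg for Fosb (35.3 CPM) and in liver Tconv for Ier5 (578 CPM), Rgs2 (938.9 CPM) and Rasd1 (8.269 CPM), and the lowest in spleen Tconv for Ier5 (290.7 CPM). Egr3 had its lowest level, 0.6507 CPM, in library 2 of liver Tconv, and Myc its lowest, 134.5 CPM, in library 5 of spleen Treg.

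The CCl4 effect of liver minus that of spleen passed its own test in Treg for 9 genes (edgeR quasi-likelihood, log2 scale): Rasd1 at -2.53, Atf3 at -2.49, Trib1 at -1.90, Jun at -1.63, Ier2 at -1.38, Rhob at -1.18, Gadd45g at -1.10, Gadd45a at -1.03 and Btg2 at -0.77. Without spleen controls 2 and 3, Trib1, Jun and Ier2 were still called.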

How the results depend on the processing

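The count of the 38 genes called moved with the spleen controls and with which libraries shared the spread. Without spleen controls 2 and 3 the counts were 21 in liver Treg, 0 in spleen Treg and spleen Tconv, 26 for Treg against Tconv in liver, 24 for the same in spleen and 5 for the difference of CCl4 effects in Treg. With the compared groups fitted alone they were 16 in liver Treg, 3 in spleen Treg, 0 in spleen Tconv, and for Treg set beside Tconv 26 in liver and 23 in spleen. Over all genes tested these fits called, in the same order, 2060 of 15568, 189 of 14896, 0 of 14159, 6937 of 14724 and 5605 of 13882. The liver libraries alone, an alternative chosen after seeing the data, gave 20 in liver Treg and 27 for Treg against Tconv in liver. They called 2029 and 7136 of all 16490 genes tested. DESeq2 gave 17 in spleen Treg, 11 in spleen Tconv and 1 for the difference in Tconv, where it called 506, 657 and 160 of all 17159 genes tested. In control libraries, Treg against Tconv in spleen gave 7, where 3799 of all 17159 genes tested were called (22.1%). The same comparison gave 8 without spleen controls 2 and 3. That fit leaves 1 spleen control library of each cell type, so the 8 cannot be compared with the 7.

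Leaving out 1 library at a time gave 4 to 7 calls in liver Treg, 0 to 0 in liver Tconv, 0 to 28 in spleen Treg and in spleen Tconv, 18 to 19 for liver against spleen in Treg and 20 to 22 in Tconv. The range for Treg set against Tconv was 14 to 17 in liver and 12 to 14 in spleen, and for the difference of CCl4 effects 2 to 22 in Treg and 0 to 20 in Tconv. These fits tested 17083 to 17740 genes. Of all genes they called 1778 to 2533 in liver Treg, 2 to 62 in liver Tconv, 9 to 342 in spleen Treg and 0 to 664 in spleen Tconv. For liver against spleen it was 8680 to 9020 in Treg and 7700 to 8009 in Tconv. Treg against Tconv gave 7121 to 7571 in liver and 5133 to 5473 in spleen, and the difference of CCl4 effects 573 to 984 in Treg and 0 to 220 in Tconv. The spleen counts were 0 without control 2 or 3 and 28 without control 1.

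Sample numbers are not stated to mark animals, and CCl4 and control mice of 1 number cannot be the same mouse. Within the CCl4 libraries, the deviations of same-numbered libraries correlated at 0.023 to 0.213 for Treg and Tconv of liver, 0.066 to 0.375 for Treg and Tconv of spleen, 0.068 to 0.327 for liver and spleen Tconv and -0.073 to 0.142 for liver and spleen Treg, so that no comparison had every pair over the minimum of 0.1. Within the control libraries 2 of 4 did: liver and spleen Treg (0.105 to 0.14) and Treg and Tconv of spleen (0.207 to 0.48). In all 4 control comparisons every same-numbered pair was above every other-numbered pair. Besides those 2, Treg and Tconv of liver had 0.096 to 0.326, against at most 0.076 for other numbers. Liver and spleen Tconv had 0.083 to 0.098, against at most -0.039. In the CCl4 libraries the same-numbered and other-numbered pairs overlapped in every comparison. The main fit took no account of sample number. With a block for sample number the counts were 19 in spleen Treg, 11 in spleen Tconv and 1 for the difference in Tconv. That fit called 208, 247 and 20 of all 17159 genes tested in the same order. With a block for treatment and number, the differences gave 19 in Treg and 4 in Tconv. Of all 17159 genes tested, 1111 and 58 were then called.

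Of 2102 repeats of single-gene results, which cover Fos and only the members called in each comparison and so leave little room for gains, 1829 kept their direction and side of the threshold, 242 lost and 18 gained a call, and 13 turned direction. Fos turned to -0.052 in spleen Tconv and to 0.078 for the difference in Tconv without spleen controls 2 and 3. In liver Tconv, Fos turned to -0.073 with the block and ran from -0.064 without control 3 to 0.074 without control 1, with -0.045 without CCl4 library 1. In control libraries, liver against spleen in Treg gave 1.16 for Fos, 0.45 for Ier2 and 0.44 for Gadd45g, and Treg against Tconv gave 0.13 for Gadd45a in liver and -0.094 for Atf3 in spleen. Without spleen controls 2 and 3 as well, liver against spleen in Tconv gave -0.11 for Zfp36l1 and -0.11 for Dusp2, and Treg against Tconv in liver 0.14 for Gadd45a. The cause was not tested.

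The spleen comparisons have 3 controls that do not lie together, and genes under 1 CPM rest on few reads.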
